A study of Mus musculus with 12 samples.

Results

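The comparison described here sets untreated CT26 tumors against cultured CT26 cells. Its members are the control libraries of the series, 3 from tumors and 3 from cells, 6 of 12 libraries in all, joined gene by gene on the Ensembl identifier. CT26 is an established mouse line derived from a chemically induced colon carcinoma of the BALB/c strain. The culture group was wild-type CT26 cells kept in DMEM with 10% fetal bovine serum and given the solvent DMSO for 48 h. The tumor group was CT26 tumors under the skin of mice that received vehicle from day 7 for 2 weeks. The other 6 libraries came from cells and tumors given midostaurin, a multikinase inhibitor, and are used only as a second look at the same contrast. All libraries were poly(A)-selected and strand-specific, from TRIzol RNA. The strain, sex and age of the mice are not given in the sources used here. No label says if replicates are distinct cultures or mice. The p-values therefore cover only variation among these libraries, which may be technical.

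A transplanted tumor line meets surroundings that culture does not offer. Vessels and fibroblasts of the host grow into the graft, macrophages, lymphocytes and other leukocytes enter it, and the cancer cells answer interferons, poor oxygen supply and the lipids in blood. A bulk tumor library holds RNA of all these cells at once, and the share of host RNA is unknown here. A gene of a host cell that culture lacks can be read against a background near 0. For a gene that cancer cells also express, a change within them and a change in the mixture of cells cannot be told apart, nor can the site of growth be told apart from medium, solvent and vehicle. In the same way, fewer cells of a type and less RNA per cell cannot be told apart.

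Total counts were 34787389 to 38144039 in the culture libraries and 38301478 to 43656543 in the tumor libraries. Each culture library held 19723 to 20033 detected genes, and each tumor library 21563 to 22145. The first principal component took 83.5% of the variance and separated tumors from culture. The next took 8.77% and set culture library 1 (-52.98) apart from culture libraries 2 and 3 (22.92 and 25.14), with the tumors between them (-2.103 to 4.351). Of 10424 genes with a mean of at least 5 CPM (counts scaled to library size) in culture, library 1 was over 2-fold above both others for 363 and over 2-fold below both for 335, while libraries 2 and 3 were that far apart for 42. For the genes named below, a call that changes without library 1 is given with and without it. Tumor 1 held the most RNA of red cells and skeletal muscle, and tumor 2 alone held RNA of skin keratinocytes, as set out with those lists.

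Expression is given as CPM scaled by TMM, a factor per library that offsets differences in composition. "Called" means a Benjamini-Hochberg adjusted p below 0.05 in edgeR's quasi-likelihood test over all 15899 genes that passed a filter on low counts. Of these, 6406 (40.3%) were called, 3536 (22.2%) higher in tumors and 2870 (18.1%) lower. The large differences were mostly gains: 1788 genes rose and 317 fell by 4-fold or more. All 3 tumors lay above all 3 culture libraries for 29.9% of the genes tested, and all 3 culture libraries lay above the tumors for 25.8%. The median log2 fold change over all genes was 0.03. Without culture library 1, the test called 5130 of 16631 genes higher (30.8%) and 3715 lower (22.3%). It kept 97.7% of the genes called higher and 96% of those called lower, and it turned the direction of 0 of them. Leaving out culture library 2 or 3 or tumor 1 or 2 instead took the genes called lower down to between 1656 and 1860. Counts of list members called, given below, are to be read beside the shares of all genes. These were 22.2% higher and 18.1% lower with all libraries, and 30.8% and 22.3% without culture library 1.

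**Figure D1:**
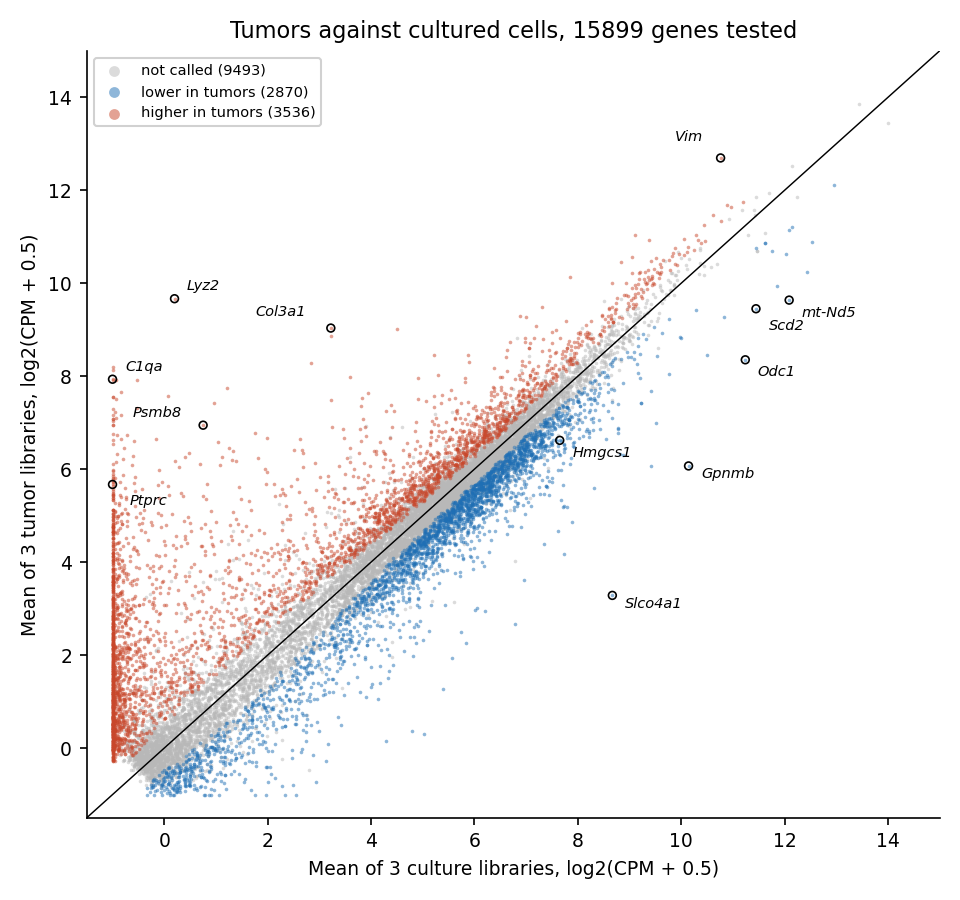
Mean of the 3 tumor libraries (vertical axis) against the mean of the 3 culture libraries (horizontal axis), both as log2(CPM + 0.5), for the 15899 genes tested. Red points were called higher in tumors (3536) and blue points lower (2870); the column of red points at the left edge holds genes with almost no counts in culture, such as C1qa and Ptprc.

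Growth in the mouse added 547 genes that had at most 3 counts in every culture library and at least 1 CPM in every tumor. Of these, 434 had 0 counts in culture, 520 were protein-coding and 75 were markers in one of the 19 host cell lists. The reverse pattern held for 9 genes, 6 of them with 0 counts in every tumor. A gene near 0 in culture passes the filter only through the tumors, so it can only be called higher. Adjusted p-values and calls of such genes below are descriptions, not support. These groups themselves were chosen by their levels, and no test is read from their size. Ranked by CPM per kilobase of exon in tumors, the leading 10 were 4 globin genes (Hbb-bs, Hba-a1, Hba-a2 and Hbb-bt), the 3 chains of complement C1q (C1qa, C1qb and C1qc), cathepsin S (Ctss, an antigen-processing protease of macrophages), the chemokine gene Ccl8 and Fcer1g, the signalling chain of Fc receptors. The C1q genes lie side by side on chromosome 4 of mm10, C1qb at 136880129-136886187, C1qc at 136889804-136893065 and C1qa at 136895917-136898803. On the culture side the named genes were 3 mitochondrial transfer RNA genes (mt-Ty, mt-Ta and mt-Tq), Ranbp3l and Accsl. The limit on transfer RNA counts in poly(A)-selected libraries is given with the mitochondrial genes below. Ranbp3l was at 1.07, 8.66 and 6.37 CPM in culture and at 0 in each tumor.

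Leukocyte RNA was the plainest gain. Of 12 genes that mark leukocytes in general, 11 were called higher in tumors, and all 12 lay higher in each tumor than in each culture library. Their summed level was 9.57 to 30.3 CPM in culture and 709 to 966.2 CPM in tumors. Ptprc, which encodes the surface phosphatase CD45 of nucleated blood cells, had 0 counts in culture and 59.6, 45 and 46.8 CPM in tumors 1, 2 and 3 (50.4 ± 7.97, SD, n = 3). With culture set to 3 counts in each library, which is the floor used throughout for genes at 0, Ptprc was at least 617.3-fold higher in tumors (edgeR adjusted p = 0.000143). Laptm5, a lysosomal membrane protein of blood cells, was at least 1928-fold higher, at 177.5, 125.2 and 170 CPM. The exception, Cd53, was at 0.99, 13.8 and 13.4 CPM in culture and 60.4, 39.1 and 42.6 CPM in tumors (edgeR adjusted p = 0.0567), and it was called higher without culture library 1 (log2 fold change 1.81, edgeR adjusted p = 0.000764). A few leukocyte genes were read in the culture itself: Itgb2 was at 4.34 to 6.71 CPM and Cytip at 3.28 to 8.11 CPM there.

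Markers of macrophages and monocytes went from near 0 to high levels. Of 24 markers, 23 were called higher, and the list summed to 33 to 177.4 CPM in culture and 2099 to 3616 CPM in tumors. Csf1r, the receptor that macrophages need to survive, was at 0, 0.0275 and 0.144 CPM in culture and at 159.3, 115 and 155.8 CPM in tumors (log2 fold change 11.28 ± 0.51, SE, edgeR adjusted p = 8.64e-05). C1qa was at 0 in culture and at 253.1, 200.9 and 278.4 CPM in tumors, at least 2988-fold higher. Lysozyme (Lyz2) had the highest level of the list per length in tumors, a mean of 617.1 CPM per kilobase of exon, and its CPM was 0.375 to 0.935 CPM in culture against 704.6, 484.7 and 1247 CPM in tumors. Arg1, an arginine-degrading enzyme of macrophages in tumors and wounds, was at 110.5, 47 and 82.2 CPM in tumors and at 0, 0 and 0.0864 CPM in culture. Mrc1, the mannose receptor, was at 281.7, 105.9 and 179 CPM, against 0.305 to 0.825 CPM in culture. Genes of newly arrived monocytes were also called higher: Ccr2 was at 57.4, 37.3 and 33.7 CPM in tumors and Ly6c2 at 24.1, 12.1 and 9.28 CPM. Cd14, a lipopolysaccharide co-receptor, was the marker not called. It was read in the cultured cells as well, at 19.9, 121.8 and 140.9 CPM in culture against 76.7, 61.1 and 92.9 CPM in tumors. Without culture library 1 it was called lower in tumors (log2 fold change -0.76, edgeR adjusted p = 0.0115).

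**Figure D2:**
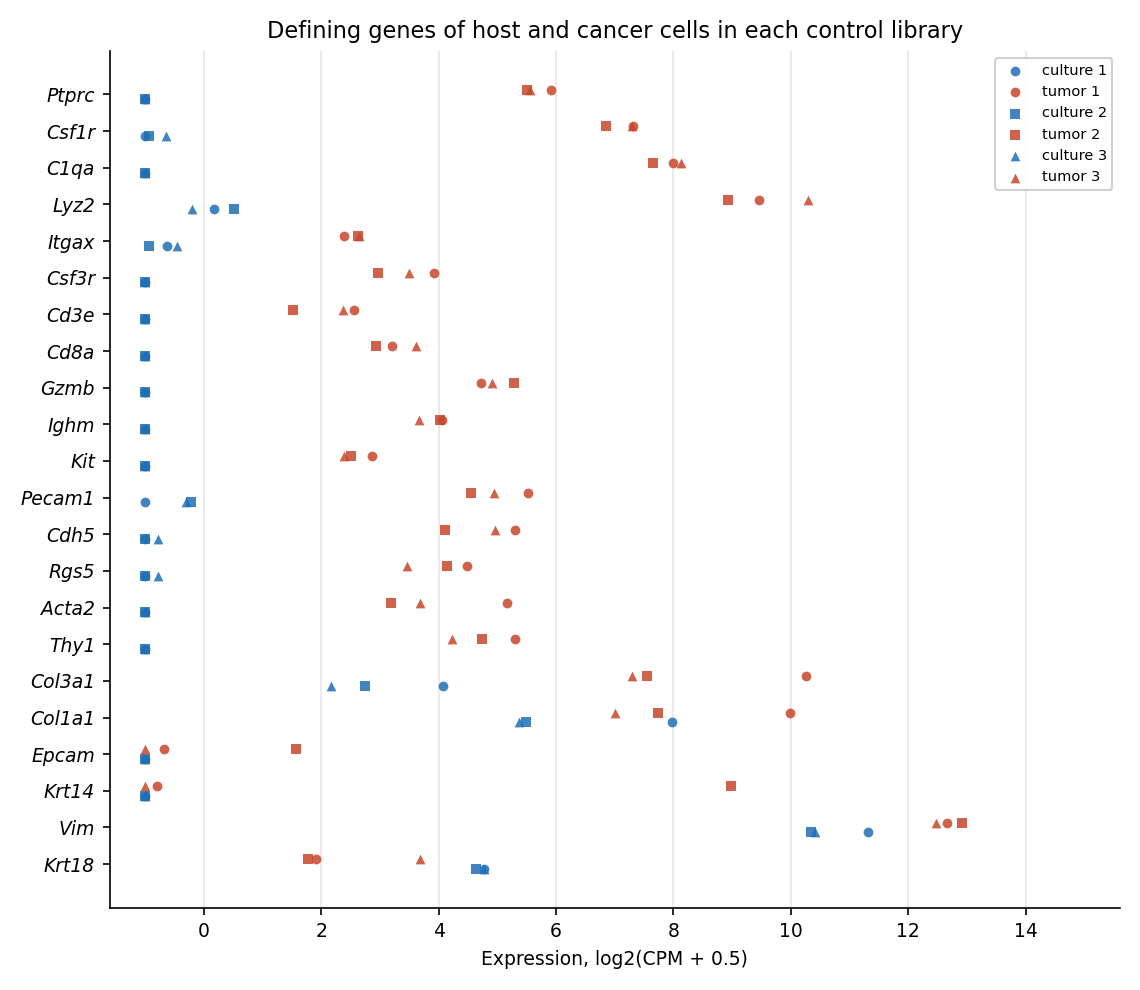
Expression of genes that define host and cancer cells, as log2(CPM + 0.5), in each of the 3 culture libraries (blue) and 3 tumor libraries (red), with 1 symbol per library number. Most host genes sit at 0 counts in culture (-1 on this axis) and above it in all 3 tumors, Krt14 is high in tumor 2 alone, and Epcam is near 0 in 5 of the 6 libraries.

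T cell genes were present in every tumor. Of 20 T cell genes, 19 were called higher, and 11 of the 20 had 0 counts in culture. Cd3e, a chain of the T cell receptor complex, was at 5.43, 2.38 and 4.68 CPM in tumors and at 0 in culture, at least 50.9-fold higher (edgeR adjusted p = 0.00136). Cd8a of cytotoxic T cells was at 8.72, 7.12 and 11.8 CPM and Cd4 of helper T cells at 1.38, 0.839 and 0.558 CPM. Per kilobase of exon the mean level was 2.53 CPM for Cd8a and 0.229 CPM for Cd4. Receptors of activated or exhausted T cells were also called, with Pdcd1 (PD-1) at 4.72, 2 and 5.74 CPM, Lag3 at 4.08, 4.46 and 5.19 CPM and Ctla4 at 2.07, 1.81 and 3.4 CPM in tumors. Foxp3, the factor of regulatory T cells, was at 0.79, 0.487 and 0.535 CPM in tumors and 0 in culture. It is annotated with exon overlap on the same strand. Of the counts of Foxp3 and its overlap partners in the control libraries, 41.9% fell to the partners. Tigit did not follow the list: it was at 23.6, 8.5 and 8.59 CPM in culture and 12.4, 12.5 and 15 CPM in tumors (edgeR adjusted p = 0.969). Tigit was called higher too without culture library 1 (log2 fold change 0.66, edgeR adjusted p = 0.0141), and with it all 20 genes of the list.

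The killer cell and cytotoxic list was called in full, 12 of 12, and 11 of these genes had 0 counts in culture. Its sum was at most 0.0508 CPM in culture and 91.5 to 105.5 CPM in tumors. Granzyme B (Gzmb) was at 25.9, 38.3 and 29.7 CPM, at least 383.1-fold higher, and perforin (Prf1), which opens the target membrane, at 21.6, 31.3 and 41.7 CPM. Ncr1, a receptor of natural killer cells, was at 3.47, 2.35 and 1.14 CPM, with 0 counts in culture. Ifng, the gene for interferon-gamma itself, was at 0.484, 0.703 and 0.628 CPM in tumors and 0 in culture, at least 7.41-fold higher (edgeR adjusted p = 0.00258).

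Other leukocyte classes were thin or uneven. Of 11 dendritic cell genes, 4 passed the filter and all of these were called higher. At most 3 counts in each culture library were found for 8 of the 11, and for 7 of 8 mast cell and 6 of 7 red cell genes described below. Such genes pass the filter only through the tumors and can only be called higher. Clec10a was at 7.62, 1.95 and 2.84 CPM in tumors, while Clec9a and Xcr1, which mark cross-presenting dendritic cells, stayed at or below 1.1 CPM in every library. Of 13 neutrophil genes, 8 passed and 6 were called higher, and their sum went from at most 3.92 CPM in culture to 74.7, 48.4 and 28.1 CPM in tumors. Csf3r, the receptor for the granulocyte growth factor, had 0 counts in culture and was at 14.7, 7.3 and 10.8 CPM in tumors, and S100a9 was at 7.06, 11.1 and 1.12 CPM. Ly6g and Camp, also of the neutrophil list, had 0 counts in the tumors, and S100a8 was at 3.21, 5.6 and 0.744 CPM in tumors against 0, 0.825 and 2.07 CPM in culture (not called, edgeR adjusted p = 0.304). Of 11 B and plasma cell genes, 4 passed and 3 were called higher, with Ighm at 16.2, 15.8 and 12.2 CPM. That count was 5 without culture library 1 and 2 without culture library 3 or tumor 1. Ms4a1, which encodes CD20, had 0 counts in all 6 libraries. All 6 mast cell and basophil genes that passed, of 8, were called higher, but tumor 3 held less of them: the summed level was 46.8 and 76.1 CPM in tumors 1 and 2 and 12.6 CPM in tumor 3. Blood content differed more. All 5 red cell genes that passed, of 7, were called higher, with Hbb-bs, a beta-globin gene, at 679.9 CPM in tumor 1, 12.3 CPM in tumor 2 and 147.3 CPM in tumor 3, and 0 in culture. Reads of the globin genes can be shared among near-identical copies.

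Vessel RNA was added in every tumor. Of 20 endothelial genes, 18 were called higher, and the list summed to 10.4 to 38.3 CPM in culture and 258.2 to 436.2 CPM in tumors. Pecam1 (CD31), an adhesion protein of endothelium, was at 0, 0.357 and 0.317 CPM in culture and 45.3, 23 and 30.4 CPM in tumors (log2 fold change 7.20 ± 0.75, SE, edgeR adjusted p = 0.00079). Cdh5, the endothelial cadherin, was at 38.8, 16.7 and 30.5 CPM in tumors. Tie1 had 0 counts in culture and was at 16.5, 7.33 and 9.37 CPM in tumors, at least 135.6-fold higher. Tumor 1 held the most of each of these 3 genes and tumor 2 the least. Of the ligands and receptors of vessel growth, Kdr (the main receptor of VEGF-A) was at 18.5, 11.1 and 8.86 CPM in tumors and at or below 0.0864 CPM in culture. Vwf, the clotting factor of endothelium, was not called, at 0.432 to 1.41 CPM in culture and 0.512 to 1.63 CPM in tumors. Markers of lymphatic vessels were mixed. Prox1, the factor that defines them, was at or below 0.127 CPM in every library, Lyve1 and Flt4 were called higher, and Pdpn was called lower, at 52.2, 382.2 and 514.8 CPM in culture and 38.6, 64.2 and 40.1 CPM in tumors. The call of Pdpn ended when any library other than culture library 1 was left out (edgeR adjusted p = 0.0662 to 0.0995).

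Stromal RNA was also added, with more spread between tumors. Of 11 pericyte and smooth muscle genes tested, 10 were called higher. Rgs5, a marker of pericytes, was at 21.9, 17.2 and 10.5 CPM in tumors and at most 0.0864 CPM in culture. Acta2 (smooth muscle actin, also made by activated fibroblasts) had 0 counts in culture and was at 35.2, 8.63 and 12.3 CPM in tumors, at least 229-fold higher (edgeR adjusted p = 0.00269). Of 16 fibroblast genes tested, 12 were called higher. Thy1 was at 38.9, 26.2 and 18.2 CPM in tumors and Postn (periostin) at 45.1, 20.2 and 1.86 CPM, both with 0 counts in culture. Pdgfra, often used to mark fibroblasts, did not separate the groups, at 15.4, 34.8 and 33.3 CPM in culture and 28.8, 31.7 and 23.4 CPM in tumors (log2 fold change 0.01 ± 0.31, SE, edgeR adjusted p = 0.987). Pdgfrb was not called either, at 17.5 to 40.9 CPM in culture and 36.2 to 54.3 CPM in tumors, so both platelet-derived growth factor receptors were read in the cultured line. Pdgfrb was called higher without culture library 1 (log2 fold change 1.31, edgeR adjusted p = 0.00222), with the replicate block (edgeR adjusted p = 0.0449) and by DESeq2 (adjusted p = 0.0248). The block pairs libraries by number, although libraries of the same number did not deviate together. Calls with the block, here and below, therefore add no support. The fibroblast sum was 55.3 to 68.3 CPM in culture and 519.3, 302.7 and 195.1 CPM in tumors 1, 2 and 3.

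Collagen chains were mostly higher in tumors. Of 17 chains, 10 were called higher and 0 lower, and 13 were called higher without culture library 1. Col3a1, the chain of type III collagen, was at 16.3, 6.24 and 4 CPM in culture and 1227, 187.9 and 157.2 CPM in tumors (log2 fold change 5.89 ± 1.09, SE, edgeR adjusted p = 0.00622), and its log2 fold change was 4.29 without tumor 1. The chains of type VI collagen differed among themselves: Col6a3 had 0 counts in culture and was at 103.9, 35.4 and 17.7 CPM in tumors, whereas Col6a1 was at 9.73 to 18.1 CPM in culture. Col1a1, the main chain of type I collagen, was not called: 251.3, 44.3 and 40.9 CPM in culture overlapped 1009, 212.2 and 128 CPM in tumors. It was called higher without culture library 1 (log2 fold change 3.41, edgeR adjusted p = 0.0232). The replicate block also called it (log2 fold change 1.97, edgeR adjusted p = 0.0045), by numbers that do not pair the libraries. Basement membrane chains Col4a1 and Col4a2 were not called, at log2 fold changes of 0.06 and 0.33. Of 18 genes of matrix remodelling, 11 were called higher and 0 lower. Plau (urokinase) was at most 0.115 CPM in culture and at 144.9, 95.1 and 60.6 CPM in tumors. Timp1, an inhibitor of matrix proteases, was at 31.1, 31 and 26.8 CPM in culture and 150.9, 286.7 and 310 CPM in tumors (log2 fold change 3.07 ± 0.28, SE, edgeR adjusted p = 0.000551).

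Genes of tissue that can lie next to a graft under the skin differed between tumors. Skin keratinocyte genes were high in tumor 2 alone: the list summed to 870.7 CPM there, to 4.79 and 2.72 CPM in tumors 1 and 3, and to 3.52 to 4.09 CPM in culture. Krt14 was at 503.9 CPM in tumor 2 and at most 0.0765 CPM in the other 5 libraries. Of 11 genes in that list 2 passed the filter and 0 were called. Skeletal muscle genes were highest in tumor 1, with a sum of 47.4 CPM against 5.17 and 9.58 CPM in the other tumors, and 4 of the 7 tested were called higher, but 1 without culture library 2. Fat cell genes were near 0 except Fabp4, which was not called (11.6 to 14.1 CPM in culture libraries 2 and 3, 0.914 in library 1 and 19.8 to 53.2 CPM in tumors). Fabp4 was called higher without culture library 1 (log2 fold change 1.37, edgeR adjusted p = 0.0334). The Y-linked genes Ddx3y, Eif2s3y, Kdm5d and Uty had 0 counts in every culture library and 2.07 to 10.2 CPM in the tumors, while Xist was at or below 0.375 CPM in all 6 libraries.

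**Figure D3:**
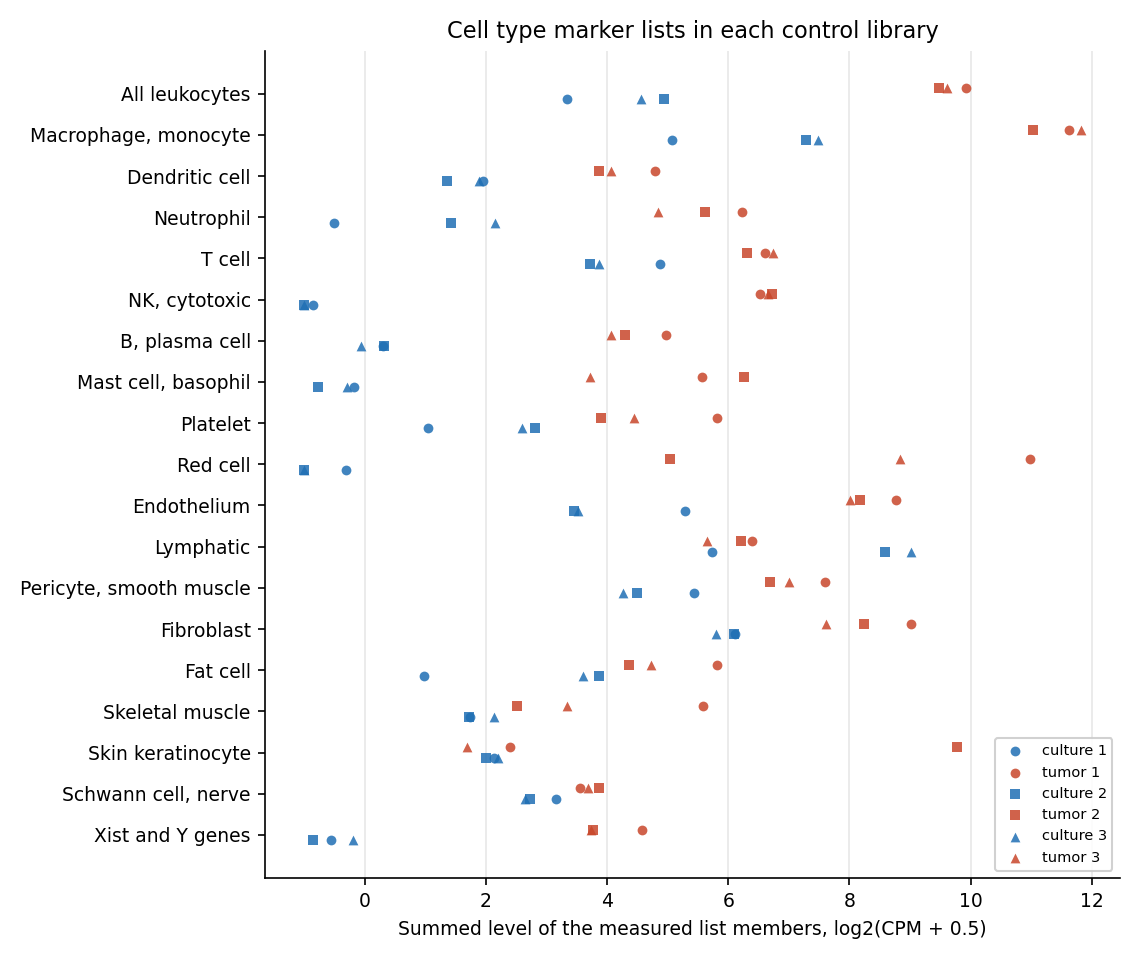
Summed level of the marker lists of 19 host cell types and tissues, as log2(CPM + 0.5), in each culture library (blue) and each tumor library (red). Leukocyte, macrophage, endothelial and fibroblast lists sit higher in all 3 tumors than in culture, red cell genes spread widely among tumors (32.4 to 2022 CPM), and keratinocyte genes are high in tumor 2 alone (870.7 CPM).

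The label of a colon carcinoma line was checked against epithelial genes. Of 22 genes, 12 passed the filter, 3 were called higher, 3 lower and 6 not, and the list summed to 505.5 to 754.4 CPM in culture and 450.1 to 682.3 CPM in tumors. Several genes that define epithelium were at or near 0. Epcam had 0 counts in culture and was at 0.127, 2.46 and 0 CPM in tumors, with the highest value in the tumor that held keratinocyte RNA. Vil1, a protein of the intestinal brush border, was at or below 0.144 CPM in all 6 libraries, and Krt8 was at 0.275 to 1.04 CPM in culture. Krt18, the partner of Krt8 in simple epithelia, fell from 27, 24.3 and 26.9 CPM to 3.26, 2.92 and 12.4 CPM (log2 fold change -2.07 ± 0.56, SE, edgeR adjusted p = 0.0255). Its call ended without culture library 2 or 3 or tumor 1 or 2 (edgeR adjusted p = 0.0579 to 0.0799), and the log2 fold change was -3.06 without tumor 3. Krt20, a keratin of mature intestinal epithelium, rose from 10.6, 51.6 and 53.4 CPM to 178.3, 221.5 and 381.8 CPM. The claudin gene Cldn6 fell from 327.5, 177.5 and 126.5 CPM to 51.3, 37.7 and 60.4 CPM, and Tjp1, which encodes the tight junction scaffold ZO-1, fell from 203 to 260.8 CPM to 117 to 134.5 CPM.

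Mesenchymal genes were abundant in both groups. Vim, the intermediate filament vimentin, rose from 2547, 1299 and 1359 CPM to 6433, 7761 and 5681 CPM (log2 fold change 1.93 ± 0.30, SE, edgeR adjusted p = 0.00315). Of the 14 genes of this list, 5 were called higher (Vim, Sparc, Cd44, S100a4 and Foxc2) and 1 lower (Cdh2, the neural cadherin). S100a4 missed the threshold without tumor 2 (edgeR adjusted p = 0.05), and 5 genes were called lower without culture library 1. The transcription factors Zeb1, Zeb2, Snai1 and Twist1 were not called, at log2 fold changes of -0.26 to 0.03. Fn1 (fibronectin) was at 845.3, 4400 and 4162 CPM in culture and 1699, 1718 and 3088 CPM in tumors, so that the tumors lay between culture library 1 and the other two. Without library 1, Fn1 (log2 fold change -0.97, edgeR adjusted p = 0.0235) and Snai1 (log2 fold change -0.47, edgeR adjusted p = 0.0477) were called lower. Leukocytes and fibroblasts also make vimentin, and their marker sums given above moved with it; their part in its rise was not tested.

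Genes of antigen presentation by MHC class I rose in full. All 11 measured genes of this pathway were called higher and lay higher in every tumor than in every culture library. The median of their log2 fold changes was 2.07 (0.03 over all genes). B2m, the light chain of every class I molecule, rose from 619.6, 675 and 690.6 CPM to 1709, 2261 and 1910 CPM (log2 fold change 1.57 ± 0.14, SE, edgeR adjusted p = 0.000466). The heavy chain gene H2-K1 rose from 270.1, 208.8 and 210 CPM to 923.9, 1250 and 1207 CPM, and H2-D1 by 1.93 on the log2 scale, with the limit that their reads can be shared with close copies. The inducible proteasome subunit Psmb8 moved most. It was at 1.22, 1.18 and 1.15 CPM in culture and 114.6, 140 and 113.9 CPM in tumors (log2 fold change 6.69 ± 0.15, SE, edgeR adjusted p = 1.92e-05). Nlrc5, the transactivator of class I genes, rose from 14.7, 18.7 and 23.4 CPM to 67, 86.1 and 85.6 CPM. Leukocytes express these genes too, and the leukocyte list moved with them (11 of 12 called higher, summed 9.57 to 30.3 CPM in culture and 709 to 966.2 CPM in tumors, Ptprc at 0 in culture); its part was not tested.

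Class II genes, which antigen-presenting cells express, went from near 0 to plain expression. All 11 that passed the filter, of 13, were called higher. At most 3 counts in each culture library were found for 7 of the 13, which could only be called higher. H2-Aa had 0 counts in culture and was at 77.8, 40.4 and 48.3 CPM in tumors, and Cd74, the invariant chain, was at 1.24, 1.7 and 2.54 CPM in culture and 246.4, 162.1 and 231.6 CPM in tumors (log2 fold change 6.87 ± 0.33, SE, edgeR adjusted p = 9.44e-05). Ciita, the factor that switches class II on, was at 2.47, 1.7 and 1.51 CPM in tumors, and its call ended without culture library 3 or any 1 tumor (edgeR adjusted p = 0.0646 to 0.0915). Of 15 complement genes tested, 13 were called higher, among them factor B (Cfb, 0 counts in culture and 92, 65.6 and 48.2 CPM in tumors) and C3ar1, the receptor for C3a (68 to 93.4 CPM in tumors). C3 itself was not called, at 15.4, 132.6 and 132.2 CPM in culture and 57.2, 37.8 and 37.4 CPM in tumors, but it was called lower without culture library 1 (log2 fold change -1.57, edgeR adjusted p = 0.000993), when 2 complement genes were. Of 18 chemokine genes tested, 15 were called higher. The monocyte attractant Ccl2 rose from 0.66, 2.45 and 2.79 CPM to 100.7, 52 and 65.7 CPM, while Cxcl1, a neutrophil attractant, was not called, at 2.23, 30.9 and 46 CPM in culture and 12.7, 15 and 6.16 CPM in tumors. Cxcl1 was called lower without culture library 1 (log2 fold change -1.75, edgeR adjusted p = 0.00825).

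Genes known as targets of interferon-gamma rose in most cases. Of 17, 14 were called higher, 16 lay higher in every tumor than in every culture library, and all 17 were called without culture library 1. Their median log2 fold change was 3.74. Gbp2, a GTPase that acts against intracellular microbes, was at 14.8, 16.5 and 13.5 CPM in culture and 237, 222.8 and 140.3 CPM in tumors (log2 fold change 3.75 ± 0.23, SE, edgeR adjusted p = 0.000193). Cxcl9, which attracts T cells, had 0 counts in culture and was at 75.9, 27.6 and 26.5 CPM in tumors, at least 530.5-fold higher. Cd274, which encodes the checkpoint ligand PD-L1, rose from 8.23, 2.67 and 3.34 CPM to 24, 23.7 and 17.8 CPM (log2 fold change 2.20 ± 0.44, SE, edgeR adjusted p = 0.00804), and by 2.88 on the log2 scale without culture library 1. Of the 16 checkpoint ligands and related genes in its list, 9 were called higher and 4 lower. Cd86, the partner of CD28 and CTLA-4, had 0 counts in culture and was at 7.14, 6.76 and 9.7 CPM in tumors, and Vsir (VISTA) rose by 5.17 on the log2 scale. Those called lower were Vtcn1, Cd276 (B7-H3), which fell by 1.24 on the log2 scale, Nectin2, by 1.24, and Cd80, by 0.69; 0 of the 4 passed a test against a 2-fold minimum. The call of Vtcn1 ended without culture library 2 or tumor 1 or 3 (edgeR adjusted p = 0.0698 to 0.0731). Cd276 was not called without tumor 2 (edgeR adjusted p = 0.0612), nor Cd80 without culture library 2 or 3 or tumor 1 or 2 (edgeR adjusted p = 0.0501 to 0.0624).

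Promoter sequences of 3 genes show the element that interferon-regulated factors bind, here searched as GAAA, any 2 bases and GAAA again, on both strands (TTTC, any 2 bases and TTTC on the other strand). They were chosen because Gbp2 and B2m rose in tumors and Ifit1 is the type I interferon gene described next. Each run is the 250 bases before the start of transcription, 5′ to 3′ on the gene's strand, from RefSeq's annotation of GRCm38.p6, with matches in capitals. The windows are chr3:142620413-142620662 for Gbp2, chr2:122147437-122147686 for B2m and chr19:34640639-34640888 for Ifit1, all on the plus strand.
Gbp2: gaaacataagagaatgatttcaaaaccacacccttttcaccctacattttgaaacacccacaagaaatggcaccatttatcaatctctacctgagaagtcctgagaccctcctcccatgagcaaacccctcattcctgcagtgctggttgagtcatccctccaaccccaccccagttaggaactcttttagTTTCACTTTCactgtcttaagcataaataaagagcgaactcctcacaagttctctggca
B2m: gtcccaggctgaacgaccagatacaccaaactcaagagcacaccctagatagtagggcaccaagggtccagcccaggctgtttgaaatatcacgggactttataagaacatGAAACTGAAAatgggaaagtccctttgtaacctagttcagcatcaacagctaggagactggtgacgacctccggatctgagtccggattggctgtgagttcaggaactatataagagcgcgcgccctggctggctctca
Ifit1: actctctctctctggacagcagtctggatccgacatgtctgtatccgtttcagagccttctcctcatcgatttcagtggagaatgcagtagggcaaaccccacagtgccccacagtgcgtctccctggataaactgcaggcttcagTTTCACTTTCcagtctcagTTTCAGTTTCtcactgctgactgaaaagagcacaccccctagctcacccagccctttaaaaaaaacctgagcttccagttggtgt

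The match begins 59 bases before the start in Gbp2, 139 in B2m, and 104 and 85 in Ifit1. Such a match was present in 10 of 13 interferon-gamma genes with a window, in 8 of 18 type I interferon genes and in 1 of 9 class I genes (B2m), against 3.46% of 27025 mouse genes. A second motif, TTCNNNGAA, known as the gamma-activated site, was in 6 of 13 interferon-gamma genes and 8.13% of all genes. A match is a description of letters in this window, not evidence of binding.

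Type I interferon genes depended on the culture library they were set against. Of 26, only 4 (15.4%, against 22.2% of all genes) were called higher with all 6 libraries, among them Mx1, Zbp1 and Ifit3. Without culture library 1, 24 were called higher, against 30.8% of all genes. In all 26, culture library 1 lay above libraries 2 and 3, which held for 6364 of all 15899 genes tested. Ifit1, which binds viral RNA, was at 24.5 CPM in culture library 1, 0.33 and 0 CPM in libraries 2 and 3, and 27.7, 31.7 and 20 CPM in tumors. Its log2 fold change was 1.67 ± 1.59 (SE, edgeR adjusted p = 0.431) with all libraries and 7.28 (edgeR adjusted p = 0.00045) without library 1. Ifi44 showed the same order, at 79.6, 1.48 and 1.15 CPM in culture and 87.8, 84.1 and 55.1 CPM in tumors, and was called higher without library 1 (log2 fold change 5.85, edgeR adjusted p = 7.92e-05). The median difference of the 26 genes, on the log2(CPM + 0.5) scale, was 0.27 between the tumors and culture library 1 and 3.18 between the tumors and libraries 2 and 3.

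Hypoxia genes rose, and tumor 3 stood below the others. Under low oxygen the HIF factors induce genes of sugar uptake, acid export and vessel growth. Of 21 genes of this list, 16 were called higher and 1 lower. Car9, a carbonic anhydrase and standard marker of hypoxic cells, was at 12.9, 1.81 and 2.31 CPM in culture and 138.5, 144.3 and 15.5 CPM in tumors (log2 fold change 4.12 ± 1.10, SE, edgeR adjusted p = 0.0239). Tumor 3 lay just above culture library 1. The log2 fold change of Car9 was 5.61 without culture library 1, and its call ended without culture library 2 or 3 or tumor 1 or 2 (edgeR adjusted p = 0.0676 to 0.0725). Ndrg1 followed the same order, at 132.5 to 204.6 CPM in culture and 645.5, 1182 and 310.6 CPM in tumors. Pfkfb3, a regulator of glycolysis, was more even, at 0.495 to 0.533 CPM in culture and 22.1, 22.8 and 15.3 CPM in tumors (log2 fold change 5.27 ± 0.24, SE, edgeR adjusted p = 8.64e-05). Vegfa, the main growth factor of vessels, went the other way: it was at 271.4, 436.4 and 438.8 CPM in culture and 190.9, 274.9 and 137.8 CPM in tumors (log2 fold change -0.93 ± 0.29, SE, edgeR adjusted p = 0.0432). The call of Vegfa ended without culture library 2 or 3 or tumor 1 or 3 (edgeR adjusted p = 0.113 to 0.137). The summed list was 1346 to 1366 CPM in culture and 2930, 4449 and 1759 CPM in tumors.

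Glycolysis genes, many of them HIF targets, rose less. Of 19, 11 were called higher and 0 lower, and their median log2 fold change was 1.00. Pgk1 (phosphoglycerate kinase) was at 879.5, 648.9 and 656.6 CPM in culture and 1443, 2077 and 948.1 CPM in tumors, and Slc16a3, the exporter of lactate, rose from 20.3 to 31.4 CPM to 64.8 to 95 CPM. Gapdh and Pkm were not called, at log2 fold changes of 0.40 and 0.17, although Gapdh was without tumor 3 (0.59, edgeR adjusted p = 0.0316). The count rests on all libraries: it was 6 or 7 when culture library 2 or 3 or tumor 1 or 2 was left out, and in the same 4 cases Pgk1 was not called (edgeR adjusted p = 0.0719 to 0.0946).

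Promoters of Car9 and Pgk1 are shown because both genes rose with the hypoxia group. The core of the hypoxia-response element, ACGTG, was searched on both strands and is in capitals. It also lies within the E-box CACGTG, which was searched separately. The windows are chr4:43506776-43507025 for Car9 and chrX:106186850-106187099 for Pgk1, both plus strand, GRCm38.p6.
Car9: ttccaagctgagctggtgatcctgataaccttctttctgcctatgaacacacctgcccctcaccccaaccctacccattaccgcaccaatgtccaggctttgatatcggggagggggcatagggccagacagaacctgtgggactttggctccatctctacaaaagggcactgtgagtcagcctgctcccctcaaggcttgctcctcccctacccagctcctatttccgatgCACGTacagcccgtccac
Pgk1: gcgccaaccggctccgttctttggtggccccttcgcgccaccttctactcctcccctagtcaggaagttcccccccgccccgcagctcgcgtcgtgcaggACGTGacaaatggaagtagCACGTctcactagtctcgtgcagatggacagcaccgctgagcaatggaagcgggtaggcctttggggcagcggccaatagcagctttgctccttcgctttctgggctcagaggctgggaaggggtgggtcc

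ACGTG was in 11 of 16 hypoxia genes with a window and 9 of 18 glycolysis genes, against 18.5% of all genes. CACGTG was in 2 genes of each list and 6.86% of all genes.

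Most genes of cholesterol synthesis fell. When cells hold enough sterol, the factor SREBP2 stays inactive and these enzymes are made less. Of 21 genes tested, 19 were called lower and 1 higher, and the median of their log2 fold changes was -1.10. Hmgcs1, which makes the precursor of mevalonate, was at 103.2, 253.9 and 244 CPM in culture and 106.2, 101.5 and 85.8 CPM in tumors (log2 fold change -1.03 ± 0.33, SE, edgeR adjusted p = 0.0433), and the tumors overlapped culture library 1. Its call ended when any library other than culture library 1 was left out (edgeR adjusted p = 0.103 to 0.139). Later enzymes separated more cleanly. Cyp51 fell from 307.9, 386.3 and 344.1 CPM to 119.8, 129.5 and 98.1 CPM (log2 fold change -1.58 ± 0.15, SE, edgeR adjusted p = 0.000552), and Nsdhl from 111.8, 200.9 and 183.8 CPM to 52.5, 54.7 and 39.7 CPM. Srebf2, the gene for SREBP2, fell by 0.60 on the log2 scale. Without culture library 1, 19 genes were again called lower.

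Promoters of Hmgcs1 and Nsdhl are shown because the CCAAT box, bound by NF-Y beside SREBP, was in all 14 cholesterol genes with a window, against 37.5% of all genes. CCAAT and its complement ATTGG are in capitals. The windows are chr13:119690101-119690350 for Hmgcs1 and chrX:72918271-72918520 for Nsdhl, both plus strand, GRCm38.p6.
Hmgcs1: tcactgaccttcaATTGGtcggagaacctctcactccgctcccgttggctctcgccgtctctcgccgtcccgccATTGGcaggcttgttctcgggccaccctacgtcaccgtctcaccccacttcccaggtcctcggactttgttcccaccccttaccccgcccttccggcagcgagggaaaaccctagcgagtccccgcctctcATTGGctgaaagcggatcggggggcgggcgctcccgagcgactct
Nsdhl: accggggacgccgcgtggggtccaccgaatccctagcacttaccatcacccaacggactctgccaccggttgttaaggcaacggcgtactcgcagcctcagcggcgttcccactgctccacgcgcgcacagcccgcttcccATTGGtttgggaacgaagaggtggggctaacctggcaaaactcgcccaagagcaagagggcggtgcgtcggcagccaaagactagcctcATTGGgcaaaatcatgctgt

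The GC box GGGCGG was in 13 of 14 cholesterol genes and 35.4% of all genes. A sterol element searched as TCACNCCAC was in 1 of 14 (Hmgcs1) and 1.22% of all genes, which says only that these letters were not found in the other windows. The CCAAT box was also frequent in lists that did not move this way: it was in 16 of 20 mitosis genes and 13 of 14 genes of the unfolded protein response.

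Genes of fatty acid synthesis fell too. Of 13 genes, 11 were called lower and 0 higher. The desaturases Scd1 and Scd2, which put a double bond into fatty acids, fell by 2.06 and 2.00 on the log2 scale, Scd2 from 2869, 2980 and 2518 CPM to 733.6, 755.1 and 608.5 CPM (edgeR adjusted p = 0.000238). Fasn, the fatty acid synthase, fell less, from 479, 581.2 and 503.3 CPM to 368.2, 292.8 and 362.5 CPM. Elovl1 and Me1 were not called, and Me1 was called lower without culture library 1 (log2 fold change -0.63, edgeR adjusted p = 0.0364).

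Transcripts of the mitochondrial genome were lower in tumors. Of 13 protein-coding genes 11 were called lower, and all mitochondrial genes together took 4.68 to 6.05% of counts in culture and 2.16 to 2.88% in tumors. Among the protein-coding genes mt-Nd5, of complex I, fell from 3336, 4805 and 4910 CPM to 628.6, 586.7 and 1171 CPM (log2 fold change -2.45 ± 0.32, SE, edgeR adjusted p = 0.00175). mt-Co1, a subunit of complex IV, was not called, at 11978 to 18767 CPM in culture and 8850 to 13359 CPM in tumors, but it was called lower without culture library 1 (log2 fold change -0.71, edgeR adjusted p = 0.0155) and with the replicate block (edgeR adjusted p = 0.0377). Both mitochondrial ribosomal RNAs and 13 of 15 transfer RNAs tested were also called lower. The libraries were poly(A)-selected, and the 22 transfer RNA genes summed to only 108.3 to 152.2 CPM in culture and 24.3 to 39.9 CPM in tumors. How far counts of these RNAs follow their levels in the cells is not known here. The nuclear genes of the same respiratory complexes did not move with them: 1 of 20, Ndufa4, was called lower, and their median log2 fold change was -0.03.

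Growth genes gave small differences. Of 24 mitosis genes, 1 was called, Cenpe, which was lower. Without culture library 1, 4 were called higher and 2 lower, and without culture library 2, 5 were called lower. Mki67, a marker of cycling cells, was at 264.7, 144.4 and 213.3 CPM in culture and 262.3, 277.3 and 279.9 CPM in tumors (edgeR adjusted p = 0.175), and without culture library 1 it was called higher (log2 fold change 0.63, edgeR adjusted p = 0.0196). Of 24 DNA replication genes 4 were called higher (16.7%, against 22.2% of all genes). Without culture library 1, 19 were called higher, against 30.8% of all genes, but 0 to 2 without any other library. Ribosomal protein genes rose slightly and evenly: 18 of 20 were called higher, the median of their log2 fold changes was 0.67, and 0 of them passed a test against a 2-fold minimum. Trp53 and Myc were not called, at log2 fold changes of 0.08 and 0.28. Myc was called higher without culture library 1 (log2 fold change 1.03, edgeR adjusted p = 0.013). Of 20 MYC and ribosome biogenesis genes, 4 were called higher (20%, against 22.2% of all genes). Without that library 17 were, against 30.8% of all genes. In both fits 1 gene was called lower, without library 1 Odc1 (log2 fold change -3.28, edgeR adjusted p = 4.19e-05). The list summed to 5738 to 6358 CPM in culture and 5468 to 5873 CPM in tumors. Of 16 tested genes that p53 is known to activate, 11 were called lower and 0 higher, among them Ccng1, from 217.6, 366.2 and 350.3 CPM to 120.2, 92.7 and 130.7 CPM, and Trp53inp1, from 42.7, 146.5 and 139.8 CPM to 5.25, 4.63 and 7.72 CPM. Cdkn1a (p21) fell by 0.45 on the log2 scale, a call that ended without any library other than culture library 1 (edgeR adjusted p = 0.0542 to 0.127). The neighbouring cell cycle inhibitors Cdkn2a and Cdkn2b on chromosome 4 had 0 counts in every culture library and 0.688 to 1.54 CPM in tumors. Host cells and cancer cells cannot be told apart as the source of these low levels.

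Immediate early genes, which respond within minutes to growth factors and stress, were mostly higher. Of 15, 10 were called higher and 1, Nr4a1, lower. Fos was at 1.07, 2.34 and 3 CPM in culture and 79.2, 42.4 and 92.3 CPM in tumors (log2 fold change 5.07 ± 0.47, SE, edgeR adjusted p = 0.000583), and Atf3 had 0 counts in culture and was at 12, 18.7 and 5.23 CPM in tumors. Junb and Ier2 were not called.

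**Figure D4:**
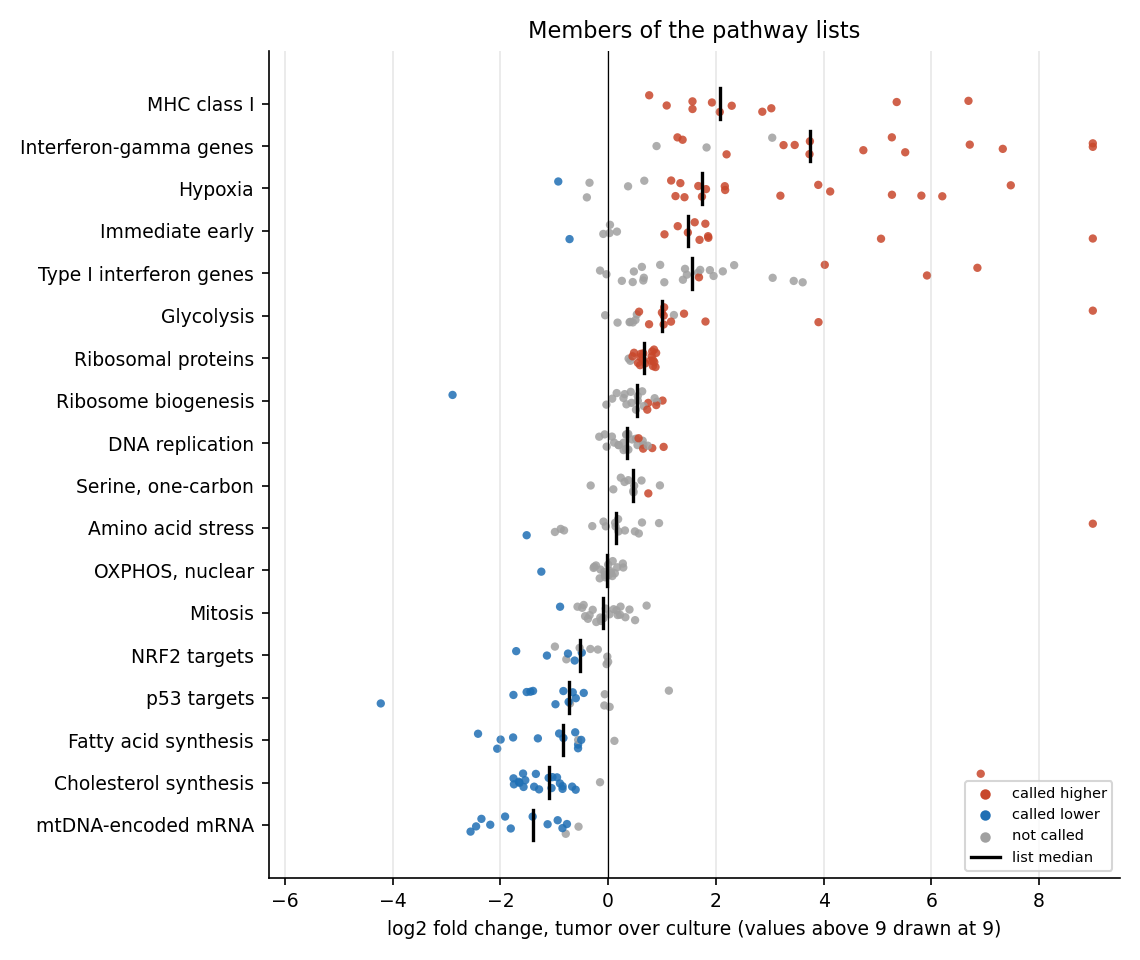
Log2 fold change of each tested member of 18 pathway lists, tumor over culture, with the list median as a black bar; red points were called higher, blue points lower and grey points not called. MHC class I (median 2.07) lies wholly to the right, and cholesterol synthesis (median -1.10) and the mRNAs of the mitochondrial genome (median -1.40) lie mostly to the left.

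The largest differences among all genes, in or outside the lists, were named by size, among called genes with a mean of at least 5 CPM in both groups and no overlap. On the higher side stood Aqp1, a water channel of vessels and red cells, from 11.6, 7.84 and 7.12 CPM to 503.1, 387.8 and 514.1 CPM (log2 fold change 5.72 ± 0.26, SE, edgeR adjusted p = 8.46e-05). Apoe, an apolipoprotein gene of the macrophage list that was also read in culture, rose by 5.54 on the log2 scale. Esm1, a secreted proteoglycan of growing vessels, rose by 4.53 (5.97 without culture library 1), and the crosslinking enzyme Tgm2 by 4.45. Gbp2b, Itgb2, Cfp (properdin, of the complement system), Slit3, Col3a1 and Car9 completed the 10. On the lower side, the organic anion transporter Slco4a1 fell from 116.1, 628.1 and 473.9 CPM to 9.92, 5.63 and 12.2 CPM (log2 fold change -5.45 ± 0.70, SE, edgeR adjusted p = 0.00173). Gpnmb, a glycoprotein induced when lysosomes are loaded, fell from 685.7, 1444 and 1257 CPM to 46.6, 89.8 and 63.5 CPM. Trp53inp1, Trp53inp2, Fam198b, Bdkrb2 (a bradykinin receptor), Mettl27, Lrrk2 and the mitochondrial mt-Rnr2 and mt-Tl1 were the others.

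Amino acid genes separated culture library 1 from both its fellow libraries and the tumors. When amino acids run short, the factor ATF4 induces transporters, synthesis enzymes and serine and one-carbon metabolism. With all libraries, 1 of 11 serine and one-carbon genes was called higher (Shmt1), and of 17 genes of the amino acid stress response 1 was called higher (Atf3) and 1 lower (Sesn2). Shmt1 lost its call without any library other than culture library 1 (edgeR adjusted p = 0.0995 to 0.116). Without culture library 1, 11 of 11 and 14 of 17 were called higher, against 30.8% of all genes. Asns, asparagine synthetase, was at 682.4 CPM in culture library 1, 132.2 and 135.7 CPM in libraries 2 and 3, and 391.2, 419.4 and 369.4 CPM in tumors. Its log2 fold change was 0.31 ± 0.63 (SE, edgeR adjusted p = 0.718) with all libraries and 1.57 (edgeR adjusted p = 0.000122) without library 1. Mthfd2, of mitochondrial one-carbon metabolism, was at 287.2, 43.6 and 43.2 CPM in culture and 176.8, 180.2 and 161.8 CPM in tumors (log2 fold change 2.01, edgeR adjusted p = 6.45e-05 without library 1). The tumor mean thus lay between library 1 and the mean of libraries 2 and 3 for 8 of 11 serine and 13 of 17 amino acid stress genes. Over all genes tested this held for 3599 of 15899. The direction of these 2 lists turns on the library chosen: the median difference from the tumors was -0.61 and -0.74 against library 1, and 1.67 and 1.29 against libraries 2 and 3.

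The promoter of Chac1, a glutathione-degrading enzyme induced by ATF4, is shown because it holds the amino acid element TGATGCAA, in capitals as its complement. The window is chr2:119350992-119351241, plus strand, GRCm38.p6.
Chac1: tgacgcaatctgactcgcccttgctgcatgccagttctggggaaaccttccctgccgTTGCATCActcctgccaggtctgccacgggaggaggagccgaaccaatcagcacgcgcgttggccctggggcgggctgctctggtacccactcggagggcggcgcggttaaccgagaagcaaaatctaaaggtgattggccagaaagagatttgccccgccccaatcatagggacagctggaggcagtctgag

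The element was in 5 of 15 amino acid stress genes with a window and in 0.918% of all genes, searched on both strands. Chac1 itself was at 101.4, 8.39 and 9.42 CPM in culture and 18.1, 30 and 19.6 CPM in tumors, between the 2 kinds of culture library, and it was called higher without library 1 (log2 fold change 1.36, edgeR adjusted p = 0.00528).

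**Figure D5:**
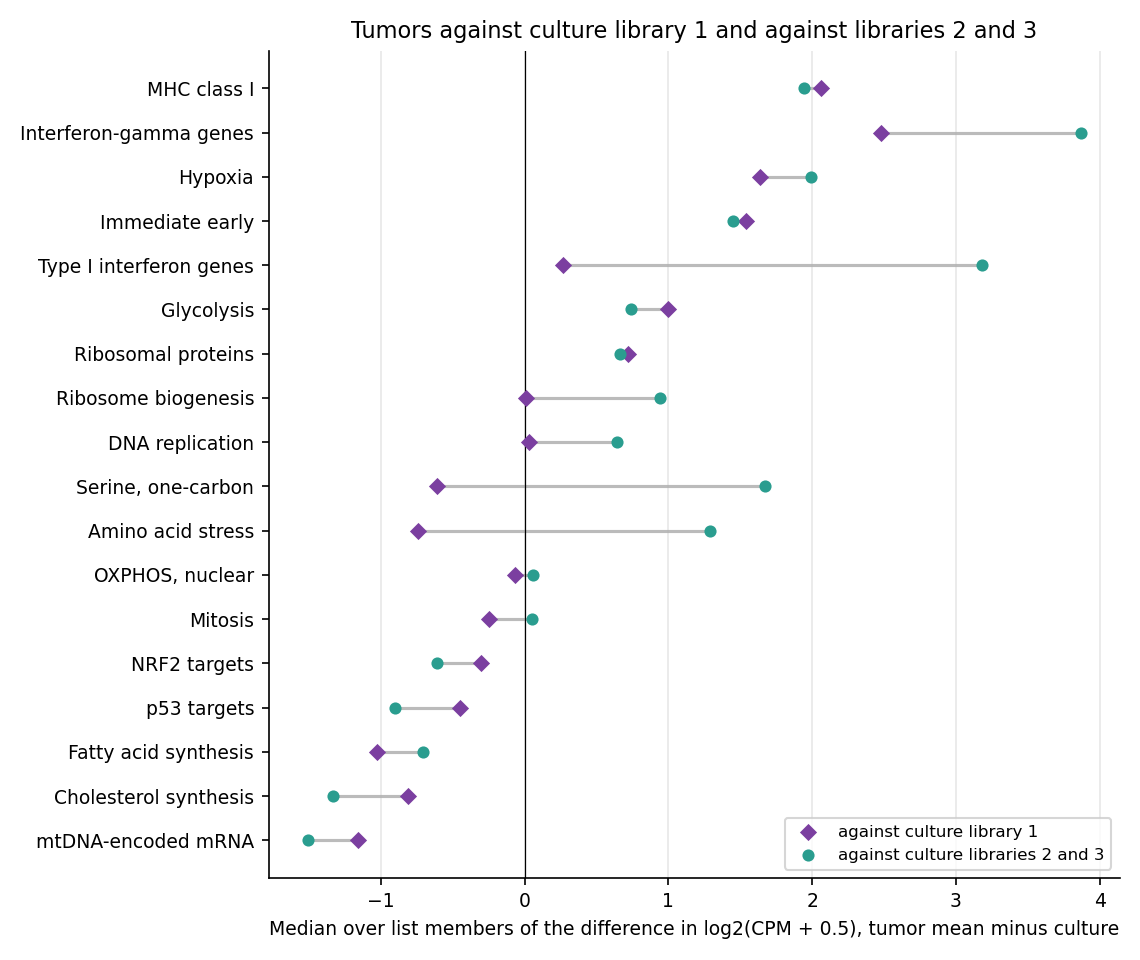
Median difference in log2(CPM + 0.5) between the mean of the 3 tumors and culture library 1 (purple diamonds), and between the same mean and the mean of culture libraries 2 and 3 (green circles), over the members of 18 pathway lists. The choice of culture library moves type I interferon genes from 0.27 to 3.18. It turns the sign for serine (-0.61 and 1.67) and amino acid stress genes (-0.74 and 1.29). Smaller medians also turn, for mitosis (-0.25 and 0.05) and nuclear OXPHOS, the respiratory complexes (-0.07 and 0.06). DNA replication (0.03 and 0.64) and ribosome biogenesis (0.01 and 0.94) are near 0 against library 1. MHC class I, hypoxia and cholesterol synthesis keep their signs.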

How the data were processed

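RNA-seq libraries of 3 control cultures and 3 vehicle tumors were compared. The authors deposited raw counts, in whole numbers, for 55335 Ensembl identifiers; per the submitters' processing notes, Bowtie2 2.3.4, RSEM, FastQC 0.11.2 and the mm10 genome were used. RSEM shares reads among similar genes by an estimate. The annotation and strand setting of the counting are not given in the sources used here. Symbols matched 99.7% of identifiers; positions and exon lengths came from GENCODE vM21 (GRCm38) and promoters from RefSeq (GRCm38.p6).

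The counts as deposited were tested with edgeR 4.0.16 (R 4.3.3): filterByExpr, TMM, quasi-likelihood F-test, Benjamini-Hochberg adjusted p of 0.05, tumors against culture, no covariate. A gene at 0 in culture was given 3 counts per library and its fold is a lower bound. Alternatives used DESeq2 1.42.0, limma 3.58.1, other scalings and filters, the replicate block, and each library left out. On simulated counts the test recovered 60 of 100 genes changed 2-fold and 100 of 100 changed 4-fold. The simulation gave every gene the same relative spread, changed only 200 genes and had no library that stood apart. Its recovery therefore does not measure the power in these data. Total counts of 34787389 to 43656543 per library set the counting precision.

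Members and gene lists (58, with 877 entries of which 1 was not matched) were chosen with earlier results of these data known. Genes were named by these rules: the 10 highest per kilobase among those near absent in the other group, the 10 largest fold changes per direction, up to 6 members of each list by p and a fixed set; others were chosen after their values were seen. In all, 8 motifs were searched in the 250 bases before the start of 27025 genes.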

Additional observations from a re-analysis of the deposited data

How the results depend on the processing

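With 2-fold as the minimum tested, edgeR called 1704 genes higher and 340 lower. Leaving out 1 library at a time gave 2785 to 5130 genes called higher and 1656 to 3715 called lower, both highest without culture library 1. The other scalings, filters and tools kept both counts within 1.5 times, and 47.7 to 60.6% of calls were then on the higher side (55.2% as reported). Genes near absent in culture and present in tumors numbered 223 with at least 5 CPM required, and 553 to 620 without 1 library. Genes near absent in tumors numbered 19 with up to 10 counts allowed, 0 with at least 5 CPM required, and 9 to 19 without 1 library. Libraries of the same number did not deviate together (correlations of -0.0566 to 0.0664), so the numbers do not pair them. With the replicate block, 3195 genes were called higher and 2320 lower.

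Midostaurin tumors against midostaurin cells, which share no library with the groups above, include 1 tumor assigned by its column name alone, since no label has its number. They gave 3414 genes higher and 2821 lower. They shared 2679 of the higher calls (75.8% and 78.5% of the 2 lists) and 2050 of the lower calls (71.4% and 72.7%), and 2 genes, Hivep1 and Sp4, were called the opposite way. The log2 fold changes of Hivep1, Sp4 and Nr4a1 were 0.45, 0.95 and 0.03 there, and the cause was not tested. Cholesterol genes called lower numbered 12 there. For type I interferon genes DESeq2 called 8 higher and limma-voom 13, against 4 with edgeR. Under the 2-fold minimum the calls fell to 8 for hypoxia, 3 for glycolysis, 7 for cholesterol and 4 for fatty acid genes. They fell to 3 for p53, 5 for immediate early, 6 for mitochondrial and 3 for mesenchymal genes. Skeletal muscle, B cell and each direction of epithelial genes were left with 1 call each. DNA replication, ribosomal protein, rising MYC and falling checkpoint genes were left with 0, while 1 MYC gene was still called lower. Of 152 called genes named in the text, 118 stayed called under all 19 alternatives. The log2 fold changes of Chac1 and Tigit were -1.30 and -0.27 without culture library 2, and 1.36 and 0.66 without culture library 1, where both were called. The 4 globin genes were not called by limma-voom (adjusted p = 0.073 to 0.119). Depth limits genes at 0 in a library to below 0.0817 CPM in culture and 0.0758 CPM in tumors, counting error only.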

Other observations

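The genes in this paragraph were chosen after their values were seen. A block of granzyme genes that lies outside the lists had 0 counts in every culture library. Gzmf was at 25.3, 40.1 and 106.5 CPM in tumors 1, 2 and 3, at least 701.4-fold higher than culture (edgeR adjusted p = 0.00215), and Gzmd was at 21.1, 34.5 and 91.2 CPM. Gzme and Gzmg had the same order, with tumor 3 the highest, although tumor 3 held the least Gzma and Ncr1 of the 3 tumors. Gzmc was at 14.8, 32.2 and 32.3 CPM. These genes lie together on chromosome 14 and resemble each other, so reads can be shared among them. Ctsc, the protease that activates granzymes, was at 354.4, 239 and 286.8 CPM in tumors and 0 in culture, at least 3591-fold higher. Receptors for the constant part of antibodies were likewise at 0 in culture, with Fcgr2b, the inhibitory receptor, at 139, 97.5 and 154.5 CPM and Fcgr3 at 102.5, 67.6 and 105.9 CPM.

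Non-classical class I genes followed the classical ones. H2-Q4 was at 131.5, 105 and 114.1 CPM in culture and 510.3, 736.8 and 623.8 CPM in tumors (edgeR adjusted p = 0.000263), and H2-T23, the mouse Qa-1 gene, was at 17, 12.3 and 14.1 CPM and 101.4, 123.3 and 90.6 CPM. Reads of the H2-Q genes can be shared. Igfbp3, a binding protein of insulin-like growth factors, had 0 counts in culture and was at 141.9, 118.2 and 143.7 CPM in tumors. Cgnl1, of cell junctions, was at 192.1, 194.3 and 199.4 CPM in culture and 28.9, 21 and 25.4 CPM in tumors (edgeR adjusted p = 8.76e-05), with the 3 culture libraries close together. Il1rl1, the receptor for interleukin 33, was at 203.3, 986.5 and 1011 CPM in culture and 101.9, 168.6 and 108.5 CPM in tumors, a call that ended without tumor 1 or 3 (edgeR adjusted p = 0.0638 and 0.0598). Ppargc1a, a regulator of mitochondrial genes, was at 11.5, 49 and 35.6 CPM and 0.51, 0.649 and 1.05 CPM.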
